A study of Homo sapiens with 12 samples.

Results

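The genes of MS5-NC cells were set against those of sox10-NC cells. Both groups were labelled as neural crest, descended from the human embryonic stem line H9, and were made and purified in different ways. MS5-NC held cells grown on MS5, a mouse bone marrow stromal line, for 35 days and sorted for the surface epitope HNK1 together with p75, a neurotrophin receptor encoded by NGFR. The cells of sox10-NC came from an H9 line with a sox10::GFP reporter, were induced with wnt for 11 days, and were sorted for GFP. Each group had 3 Illumina HT-12 bead arrays, labelled as biological replicates, so 6 of the 12 arrays of the study enter this comparison. Of the other 6 arrays, 3 were from NPC-NC, which was induced without feeders and sorted for HNK1 and p75 at day 18, and 3 from LSB, unsorted neuroepithelial cells at day 11, and they served to estimate the spread. Feeder, inducing agent, days in culture, sorting marker and reporter transgene all differed between MS5-NC and sox10-NC, so their effects cannot be told apart. Sorted cells were measured in bulk, so fewer cells of a type and less RNA per cell cannot be told apart either.

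The neural crest is a population of embryonic cells that arises at the border of the neural plate and the epidermis, leaves the neural tube through an epithelial to mesenchymal transition, and gives rise to peripheral neurons and glia, melanocytes and parts of the facial skeleton. Wnt, BMP and FGF signals specify it, and the transcription factors TFAP2A, FOXD3, SNAI2 and SOX10 then act in sequence. HNK1 and p75 are carried by migrating crest cells and have been used to isolate them, but both also occur on cells of the central nervous system. SOX10 is more restricted, to crest cells, peripheral glia, melanocytes and oligodendrocytes.

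Across 11280 genes tested, 1214 rose and 741 fell in MS5-NC relative to sox10-NC (limma, Benjamini-Hochberg adjusted p under 0.05, at least 2-fold, with the gene detected on 2 or more arrays of the group where it was higher). These are 17.3% of the genes tested in both directions together, 10.8% higher and 6.57% lower, and the shares of every gene group below are to be read against them. At least 4-fold differences were seen for 360 higher and 135 lower genes, and at least 8-fold differences for 137 higher and 51 lower genes. For 430 of the higher genes no sox10-NC array rose above background, and for 119 of the lower genes no MS5-NC array did. The arrays of the groups did not overlap for 40.19% of the genes tested and for 96.98% of the called genes. Non-overlap of a called gene is therefore usual, and is given below only as a description. Each array detected 16078 to 16747 probes in MS5-NC and 14616 to 15423 in sox10-NC, of 47322. Profiles over the genes tested had a Pearson correlation of 0.842 to 0.874 between an MS5-NC and a sox10-NC array, while pairs within MS5-NC gave 0.962 to 0.969 and pairs within sox10-NC 0.943 to 0.962. Levels below are normalised log2 intensities of 1 probe a gene, on which 1 unit is a doubling, and they are not compared between genes. Where 1 group lay below background, the fold is a lower bound set at the lowest level that its arrays could detect. A gene detected on only some arrays of the group where it was lower has a plain fold. That fold uses levels under the detection floor and can be too large, as for HES5, STMN4, DUSP6, PRPH, DLX5 and INSC.

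**Figure D1:**
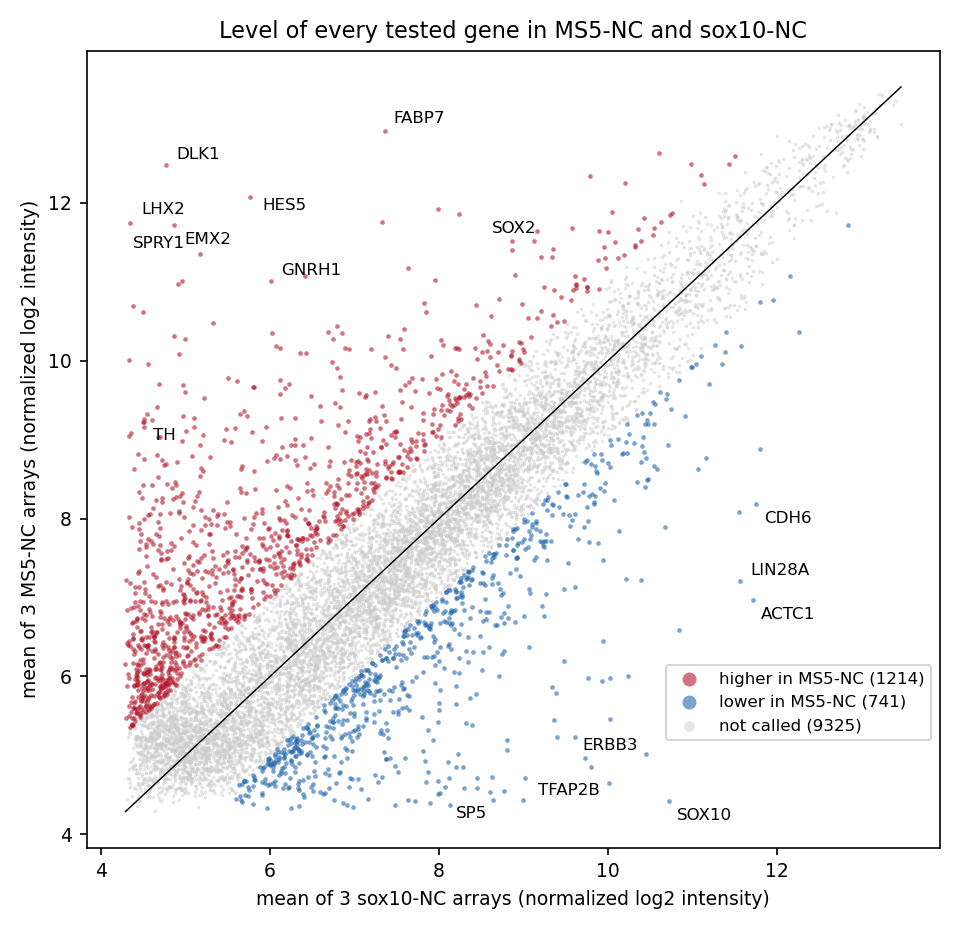
Mean log2 intensity on the 3 MS5-NC arrays (vertical) and the 3 sox10-NC arrays (horizontal) for each of the 11280 genes tested. The line marks equal levels. The 1214 genes called higher in MS5-NC (red) reach farther from it than the 741 called lower (blue), and many of the red ones stand at the left edge, where sox10-NC was at background.

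The genes behind the sorting markers were examined first. NGFR, which encodes p75, had log2 levels of 4.69, 4.71 and 4.54 on the MS5-NC arrays, all below background, and of 7.44, 6.47 and 6.43 on the sox10-NC arrays, all detected. It was at least 3.05-fold lower in MS5-NC (log2 difference -2.13 ± 0.28 SE, adjusted p = 1.33e-05), the group that had been sorted for p75, and its call ended without background correction. B3GAT1, the glucuronyltransferase that builds the HNK1 epitope, went the other way. Its levels were 7.28, 7.38 and 6.94 in MS5-NC and 5.03, 4.36 and 4.90 in sox10-NC, where no array detected it, and it was at least 3.49-fold higher in MS5-NC. Of 6 measured genes for HNK1 synthesis or for proteins that carry HNK1, 3 rose and 0 fell. The other 2 that rose were CNTN1 and NFASC, adhesion proteins of axons, at least 1.36-fold and at least 1.57-fold higher, and both calls ended without background correction or with an offset of 50, that of CNTN1 also without MS5-NC array 3. SOX10, whose reporter was used to sort sox10-NC, had levels of 4.58, 4.32 and 4.38 in MS5-NC and 10.96, 10.51 and 10.70 in sox10-NC. The groups were separated by more than 5 log2 units and SOX10 was at least 46.9-fold lower in MS5-NC (adjusted p = 1.34e-12).

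The transcription factors that specify the neural crest were largely lower in MS5-NC. Of 19 measured specifiers, 13 fell and 3 rose, with a median log2 difference of -1.72, against -0.003 over all genes tested. SOX10, by whose reporter sox10-NC was sorted, is among the 13 that fell. TFAP2B, an AP-2 factor of crest and sympathetic cells, had 4.84, 4.63 and 4.49 in MS5-NC and 9.92, 9.76 and 10.36 in sox10-NC, and was at least 28.7-fold lower. TFAP2A, an activator at the plate border and in premigratory crest, had 5.46, 4.65 and 5.61 in MS5-NC and 9.78, 9.23 and 9.81 in sox10-NC. It fell 20.7-fold (log2 difference -4.37 ± 0.37, adjusted p = 4.57e-08) and was still detected on 2 of the 3 MS5-NC arrays. SNAI2, a repressor of epithelial genes in crest that delaminates, fell by 3.91 on the log2 scale and was detected on 2 MS5-NC arrays. FOXD3, a factor of premigratory crest, was below background in MS5-NC, at 4.41, 4.40 and 4.49, and detected in sox10-NC, at 7.36, 6.38 and 6.54, so that it was at least 3.01-fold lower. PAX3, a factor of the plate border, was detected on 1 MS5-NC array, and fell 3.29-fold, a call that ended without background correction. SOX8, a relative of SOX10, fell 5.19-fold. For TFAP2B, TFAP2A, SNAI2, FOXD3, PAX3 and SOX8 no MS5-NC array reached the lowest sox10-NC array.

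The 3 specifiers that rose were DLX5, ZIC1 and SOX9, which also act in the forebrain, the dorsal neural tube and neural stem cells. DLX5, a homeobox factor of the plate border and of forebrain interneurons, had 9.38, 9.25 and 9.46 in MS5-NC and 5.36, 7.32 and 4.39 in sox10-NC. It rose 12.7-fold (log2 difference 3.67 ± 0.60), or by 4.50 without sox10-NC array 2 and 3.02 without sox10-NC array 3. ZIC1 was at least 4.65-fold higher and SOX9 rose 5.34-fold, with no overlap between the groups.

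Receptors and adhesion proteins of migrating crest followed the same direction, with 10 of 16 lower, 2 higher and a median log2 difference of -2.0. ERBB3, the receptor through which neuregulin acts on crest and Schwann cells, had 5.73, 4.66 and 4.68 in MS5-NC and 10.56, 10.27 and 10.51 in sox10-NC, and fell 42.8-fold (adjusted p = 5.70e-10). Its remaining signal in MS5-NC was detected on array 1 only. CDH6, a cadherin of premigratory crest, stayed detectable on every array. It had 8.05, 8.43 and 8.07 in MS5-NC and 11.81, 11.84 and 11.59 in sox10-NC, a fall of 11.8-fold. Its other detected probe gave a log2 difference of -1.27. NRP2, a receptor for the class 3 semaphorins that steer crest streams, was at least 7.61-fold lower, and CXCR4, the receptor for the chemokine CXCL12, fell 8.98-fold. GFRA1, a co-receptor for GDNF, fell 5.56-fold and ITGA4, an integrin subunit that binds fibronectin, 5.49-fold. EPHA4, an ephrin receptor, and CDH11, a cadherin of mesenchyme and crest, rose 5.45-fold and 2.62-fold, with CDH11 no longer called without background correction.

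**Figure D2:**
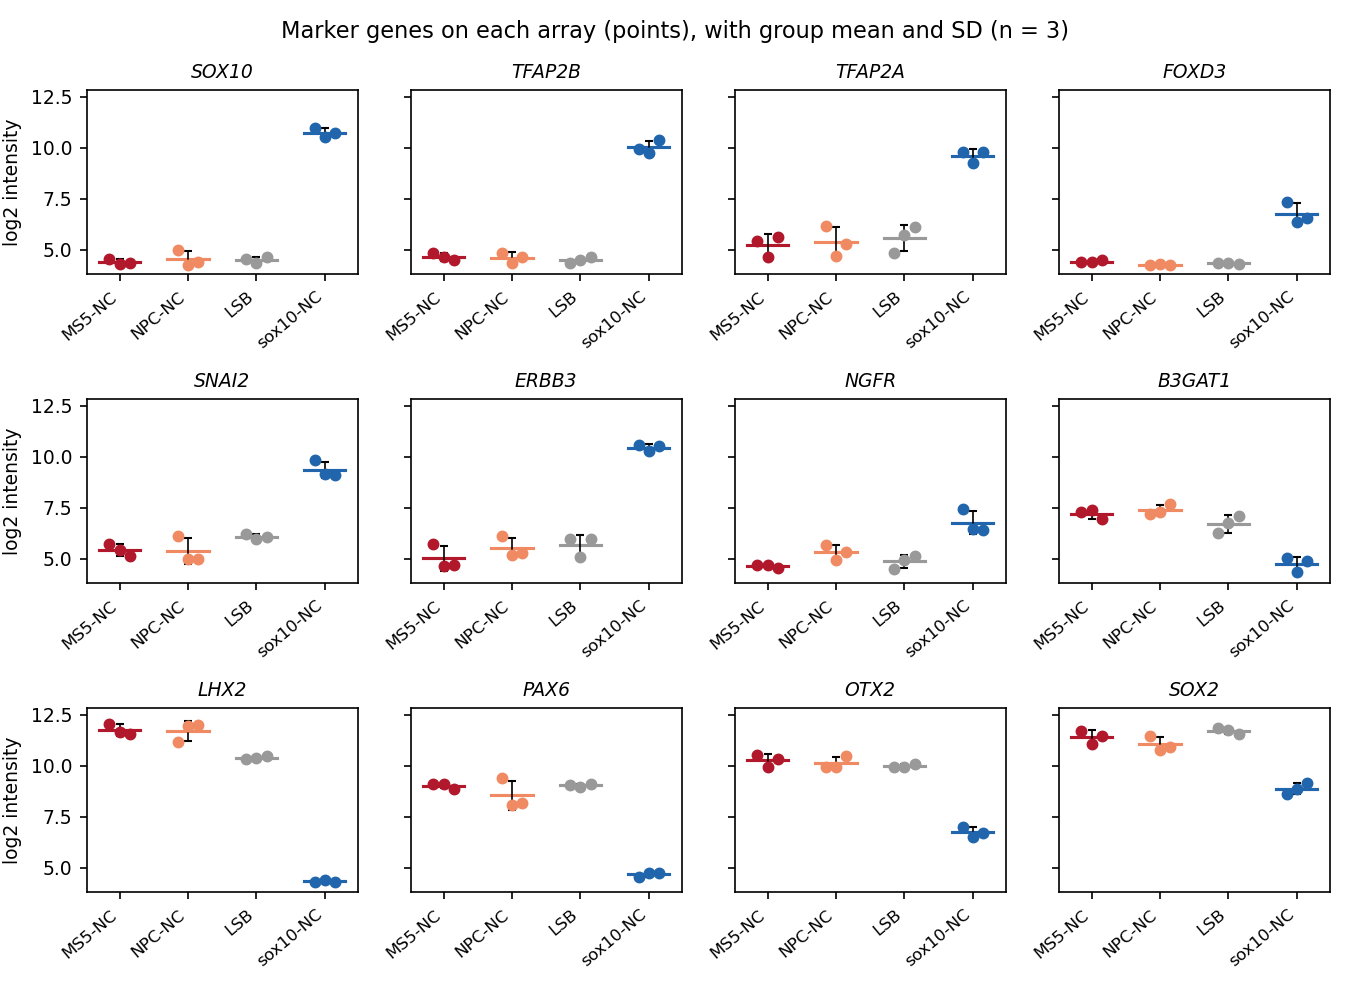
Log2 intensity of 12 marker genes on each array (points), with the group mean (coloured line) and SD (black bar, n = 3), for MS5-NC, NPC-NC, LSB and sox10-NC. SOX10, TFAP2B, TFAP2A, FOXD3, SNAI2, ERBB3 and NGFR are lower on all MS5-NC arrays than on all sox10-NC arrays, and B3GAT1, LHX2, PAX6, OTX2 and SOX2 are higher.

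As a check of the labelled cell type, 8 defining neural crest genes were summed on the linear scale. The sum was 222 to 272.4 intensity units over the MS5-NC arrays and 4982 to 6702 over the sox10-NC arrays. All 8 were called lower in MS5-NC and 4 of them were below background on its 3 arrays. SOX10 is in both counts and in the sums. Its high level in sox10-NC was selected by the reporter sort, so its difference is no independent check. The sum over 6 measured genes of the central nervous neuroepithelium was 9978 to 13240 in MS5-NC and 617 to 762 in sox10-NC, with all 6 called higher. The MS5-NC arrays therefore went against the label neural crest on the genes by which crest is recognised, and the group is called MS5-NC throughout.

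Descendants of the crest were also examined. Of 4 measured melanocyte genes, 3 fell and 0 rose. PMEL, a structural protein of melanosomes that is also high in stem cells, had 8.88, 7.67 and 7.69 in MS5-NC and 11.53, 11.89 and 11.21 in sox10-NC, a fall of 11.0-fold. MITF, the master regulator of melanocytes, was below background in MS5-NC and at least 3.74-fold lower, and KIT, a receptor needed for melanoblast survival, fell 4.10-fold. The 3 Schwann cell and glial precursor genes that rose, of 6 measured, were FABP7, GAP43 and TTYH1, all of which are also made in the brain, and TTYH1 was no longer called as the mean over its probes.

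Most measured genes of the sensory lineage fell. POU4F1, a homeobox factor of sensory ganglia, had 5.91, 5.63 and 6.40 in MS5-NC and 8.82, 10.81 and 10.44 in sox10-NC. It fell 16.5-fold (log2 difference -4.04 ± 0.44, adjusted p = 1.35e-06), or by 4.65 on the log2 scale without sox10-NC array 1, the lowest of its group. NEUROG1, a bHLH factor that starts sensory neurogenesis, had 5.43, 6.12 and 5.63 in MS5-NC and 7.83, 8.78 and 8.47 in sox10-NC, and fell 6.21-fold. ISL1, a LIM homeobox factor of sensory and motor neurons, had 8.25, 7.87 and 8.45 in MS5-NC and 8.64, 10.55 and 10.31 in sox10-NC, and fell 3.13-fold, or by 2.24 on the log2 scale without sox10-NC array 1. EYA1, a co-activator of placodes and ganglia, fell 5.35-fold. In all, 4 of 6 measured sensory genes fell, and only PRPH, a peripheral neurofilament protein, rose. PRPH had 7.41, 8.18 and 9.02 in MS5-NC and 4.25, 6.21 and 4.44 in sox10-NC, a rise of 9.43-fold, or 3.88 on the log2 scale without sox10-NC array 2.

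Factors of the forebrain and eye field stood high in MS5-NC. Of 16 measured, 12 rose and 0 fell, and their median log2 difference was 2.55. LHX2, a LIM homeobox selector of cortical identity, had 12.06, 11.64 and 11.55 in MS5-NC and 4.31, 4.43 and 4.29 in sox10-NC, and was at least 81.8-fold higher (adjusted p = 3.51e-13). EMX2, a homeobox factor that patterns the cortex, had 11.75, 11.56 and 11.84 in MS5-NC and 5.08, 4.94 and 4.57 in sox10-NC, at least 80.1-fold higher. Both were detected on every MS5-NC array and on no sox10-NC array. SP8, a zinc finger factor of the anterior neural ridge and of interneurons, was at least 30.3-fold higher. FEZF2, a factor of deep-layer cortical neurons, was at least 14.6-fold higher, and PAX6, a factor of cortical and retinal progenitors, at least 12.4-fold. OTX2, a head selector, was detected on every array, with 10.54, 9.94 and 10.34 in MS5-NC and 7.01, 6.51 and 6.71 in sox10-NC, and rose 11.6-fold.

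Markers of more caudal levels showed little. Of 5 measured midbrain and hindbrain genes, IRX1, an Iroquois factor, fell 2.28-fold and none rose. The IRX1 call ended without background correction, with an offset of 50 and without sox10-NC array 1. Of 29 HOX genes with a probe assigned here, 3 passed detection and none was called (limma). HOXB2 alone had an adjusted p under 0.05, and it missed the 2-fold cut. It was detected on all 3 MS5-NC arrays and on no sox10-NC array, with a log2 difference of 0.92 (limma, adjusted p = 0.00222). Without MS5-NC array 1 or sox10-NC array 2, 1 HOX gene was called higher, as was 1 midbrain and hindbrain gene. HOXB2 is on both lists, so these counts are of the same gene.

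Genes of the dorsal midline of the neural tube, from which crest cells emigrate, rose for 8 of 15 measured members and fell for 1. The number that rose was 6 with cyclic loess or without MS5-NC array 2, and 10 without MS5-NC array 1. The median log2 difference was 1.03, or 0.39 with genes below background set at their bounds. Some of the 8 had no lower bound above 1-fold. ZIC4, a zinc finger protein made in the dorsal midbrain and cerebellar anlage, had 10.15, 10.18 and 9.71 in MS5-NC and 4.29, 4.34 and 4.38 in sox10-NC, and was at least 24.6-fold higher. ZIC2, a relative, was detected in both groups, with 12.04, 11.68 and 11.56 in MS5-NC and 7.18, 7.09 and 7.70 in sox10-NC, and rose 21.6-fold. The secreted Wnt agonists RSPO3 and RSPO1 were at least 7.59-fold and 3.53-fold higher, and the Wnt ligand WNT7B at least 3.83-fold. BMP5, a BMP ligand, was the member that fell, 10.1-fold.

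Neural stem cell genes rose for 9 of 18 measured members, with 0 lower. FABP7, a lipid-binding protein of radial glia, had the largest rise among genes detected on all 6 arrays. It had 13.00, 12.78 and 12.95 in MS5-NC and 7.44, 6.89 and 7.74 in sox10-NC, a rise of 47.0-fold (log2 difference 5.55 ± 0.25, adjusted p = 1.23e-11). SOX3 and SOX21, factors that act in neural progenitors, were at least 37.4-fold and 25.7-fold higher. SOX2, which keeps neural and crest progenitors undifferentiated, had 11.71, 11.04 and 11.44 in MS5-NC and 8.61, 8.84 and 9.15 in sox10-NC, and rose 5.78-fold. POU3F2, a POU factor of neural progenitors and cortical neurons, was at least 12.4-fold higher and PROM1, a membrane protein of apical progenitors, at least 10.5-fold. NES, an intermediate filament of neural and crest progenitors alike, was not called, with 9.81, 9.85 and 10.13 in MS5-NC and 9.70, 9.47 and 10.02 in sox10-NC.

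Neuronal genes rose as a broad group. Of 23 measured pan-neuronal genes, 20 rose and 0 fell, and the median log2 difference was 1.97. STMN4, a stathmin of neurons, had 10.39, 10.69 and 11.92 in MS5-NC and 4.48, 5.69 and 4.71 in sox10-NC, and rose 65.9-fold. Its levels on sox10-NC arrays 1 and 3 lay under the detection floor. GNG3, a G protein subunit, was at least 14.5-fold higher, and MAPT, the microtubule protein tau, rose 18.1-fold. INA, a neurofilament protein, had 10.35, 9.93 and 10.76 in MS5-NC and 5.78, 8.13 and 6.63 in sox10-NC. It rose 11.3-fold, or by 4.13 on the log2 scale without sox10-NC array 2. Of 14 measured voltage-gated channel genes, 7 rose and 0 fell, among them SCN3B, a sodium channel subunit, at least 3.16-fold higher. On this channel list only 2 were called higher without background correction and 3 with an offset of 50. Of 18 genes for synaptic vesicles and their fusion, 6 rose and 1 fell. SYT13, a synaptotagmin, rose 11.3-fold, and BSN, a scaffold of the presynaptic zone, rose 3.94-fold or by 1.35 on the log2 scale without sox10-NC array 1. The fallen gene, SNCG, a synuclein of peripheral neurons, had 5.50, 4.40 and 4.95 in MS5-NC and 4.88, 7.13 and 6.32 in sox10-NC, which overlapped. Its log2 difference was -1.16 (adjusted p = 0.046), or -1.79 without sox10-NC array 1, and SNCG lost its call under 12 of the 16 alternatives.

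The neuronal rise varied with the sox10-NC array used. Among the 5 genes used as neuron markers, STMN2, a stathmin of growing axons, had 12.14, 12.50 and 12.38 in MS5-NC and 8.13, 10.80 and 10.42 in sox10-NC. ELAVL3, a neuronal RNA-binding protein, had 9.52, 9.52 and 9.85 in MS5-NC and 6.11, 8.95 and 7.55 in sox10-NC. The array sox10-NC 1 was the lowest of its group for both, as it was for POU4F1 and ISL1, while the MS5-NC arrays lay close together. Without it, the log2 difference was 1.72 for STMN2, against 2.56 with all arrays, and 1.38 for ELAVL3, against 2.09, and without sox10-NC array 2 the ELAVL3 difference came to 2.80. TUBB3, a neuronal tubulin, rose 2.09-fold with all arrays, and its call ended without sox10-NC array 1 or without MS5-NC array 3. The summed level of the 5 markers, with DCX and MAP2, was 13810 to 17140 intensity units in MS5-NC and 2673 to 6563 in sox10-NC. All 5 were detected in both groups, and the part of neurons in the other differences was not tested.

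Genes of cortical neurons were among those that rose. Of 12 measured genes of the cortical glutamatergic lineage, 6 rose and 0 fell. EOMES, a T-box factor of intermediate progenitors of the cortex, had 10.48, 10.51 and 11.06 in MS5-NC and 4.31, 4.48 and 4.35 in sox10-NC, and was at least 39.2-fold higher. TBR1, its relative in postmitotic cortical neurons, was at least 2.52-fold higher, but not called without background correction. The vesicular glutamate transporter genes SLC17A6 and SLC17A7 were at least 9.40-fold and 4.28-fold higher, and NEUROG2, a bHLH factor of cortical neurogenesis, rose 8.38-fold. NEUROG2 was thus higher and NEUROG1 lower in MS5-NC. Of 5 measured genes of GABAergic neurons, 4 rose. GAD1, which makes GABA, averaged 8.67 ± 0.59 in MS5-NC and 4.74 ± 0.30 in sox10-NC (SD, n = 3 each), and was at least 9.70-fold higher. SLC32A1, the vesicular transporter of GABA, was at least 4.25-fold higher, and DLX1, an interneuron factor, rose 12.7-fold, or by 4.40 on the log2 scale without sox10-NC array 2.

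A pair of hormone and transmitter genes belongs beside these. TH, or tyrosine hydroxylase, the first enzyme towards dopamine and noradrenaline, had 9.56, 8.74 and 9.38 in MS5-NC and 4.35, 4.71 and 4.40 in sox10-NC, and was at least 14.2-fold higher. It was the only one of 4 measured autonomic genes to be called, and 2 were called higher without MS5-NC array 2 or without sox10-NC array 2. GNRH1, the hypothalamic hormone whose neurons arise near the olfactory placode, had 10.74, 10.83 and 11.46 in MS5-NC and 6.41, 6.07 and 5.55 in sox10-NC, and rose 32.0-fold (adjusted p = 1.73e-10). Both genes separated the groups on all arrays. In NPC-NC, GNRH1 had 7.78, 8.17 and 8.28, and in LSB 6.34, 6.53 and 6.03, so its level in MS5-NC was the highest of the 4 groups.

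**Figure D3:**
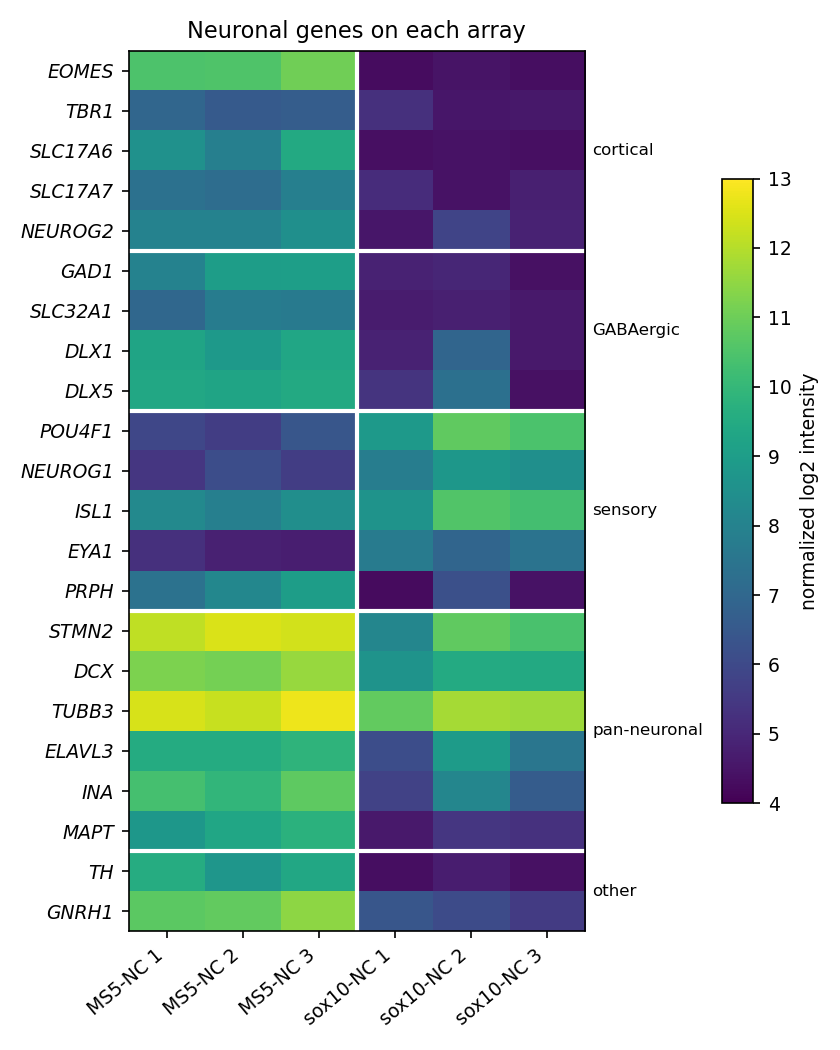
Log2 intensity (colour) of 22 neuronal genes (rows, grouped by lineage) on each MS5-NC and sox10-NC array (columns). Cortical and GABAergic genes are bright on the MS5-NC arrays, POU4F1, NEUROG1, ISL1 and EYA1 on the sox10-NC arrays, and sox10-NC 1 is dimmer than sox10-NC 2 and 3 for STMN2, POU4F1 and ISL1.

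Transcripts that host neural miRNAs moved with these genes. MIR9-2HG, a host transcript of miR-9, had 10.51, 10.97 and 11.41 in MS5-NC and 4.77, 4.61 and 5.36 in sox10-NC, and was at least 47.6-fold higher (adjusted p = 2.83e-11). MIR9-1HG and MIR100HG, chosen after their values were seen, were at least 19.8-fold and 15.3-fold higher. The arrays measured the host transcripts and not the mature miRNAs, which are 22 or 23 bases long and are shown here because their seeds (bases 2 to 8, in capitals) set what they pair with. The sequences are those of RefSeq for GRCh38.p14. miR-9 comes from both arms of the MIR9-2 hairpin, at chr5:88666902-88666924 and chr5:88666866-88666887 on the minus strand, and miR-100 from chr11:122152275-122152296 on the minus strand. The 3 seeds differ from one another.
hsa-miR-9-5p: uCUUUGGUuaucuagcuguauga
hsa-miR-9-3p: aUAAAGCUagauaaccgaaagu
hsa-miR-100-5p: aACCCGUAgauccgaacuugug

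Wnt signalling acts through beta-catenin and TCF/LEF factors, which induce a set of feedback genes in many tissues. Of 13 measured Wnt targets, 7 fell in MS5-NC and 0 rose, with a median log2 difference of -1.32. Wnt was the inducing agent named for sox10-NC. SP5, a zinc finger repressor and direct Wnt target, had 4.48, 4.43 and 4.41 in MS5-NC and 8.61, 9.06 and 8.26 in sox10-NC, and was at least 11.1-fold lower (adjusted p = 2.34e-10). NKD1, which restrains Dishevelled, had 4.63, 4.75 and 5.16 in MS5-NC and 8.68, 8.52 and 7.64 in sox10-NC, and was at least 8.61-fold lower. Neither was detected on any MS5-NC array. AXIN2, a scaffold of the complex that degrades beta-catenin, had 8.68, 8.68 and 8.62 in MS5-NC and 10.58, 10.87 and 10.20 in sox10-NC, a fall of 3.70-fold from a level that stayed well detected. TNFRSF19, a TNF receptor family member, fell 5.42-fold and LEF1, a nuclear effector of the pathway, 2.95-fold. NOTUM, an enzyme that inactivates Wnt ligands, was at least 2.68-fold lower, a call that ended without background correction. CCND1, a cyclin, was not called, with 9.94, 10.08 and 9.12 in MS5-NC and 10.06, 10.24 and 10.10 in sox10-NC.

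The 250 bases upstream of the SP5 start were searched for the core letters of the TCF/LEF motif, CTTTGA, on both strands, and are shown because SP5 was the Wnt target with the largest difference. They hold 3 matches, in capitals, in the RefSeq sequence of GRCh38.p14 at chr2:170715087-170715336 on the plus strand. Of the 4 fallen Wnt targets with a sequence of this kind, 1 holds a match, and 11.2% of 35116 promoters do. A match is a description of the letters and not of binding.
SP5: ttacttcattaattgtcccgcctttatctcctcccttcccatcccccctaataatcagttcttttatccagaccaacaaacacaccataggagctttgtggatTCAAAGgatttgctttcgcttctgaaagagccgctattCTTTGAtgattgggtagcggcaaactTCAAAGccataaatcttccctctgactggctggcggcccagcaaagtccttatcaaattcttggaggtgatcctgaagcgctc

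FGF signalling through ERK induces Sprouty and DUSP feedback inhibitors and ETS factors of the PEA3 group. Of 17 measured FGF genes, 8 rose in MS5-NC and 0 fell, or 1 fell without sox10-NC array 1. SPRY1, a Sprouty inhibitor, had 11.09, 11.95 and 10.99 in MS5-NC and 5.45, 4.98 and 5.09 in sox10-NC, and was at least 61.8-fold higher (adjusted p = 6.67e-12). SPRY2, a relative, was detected in both groups, with 10.31, 10.59 and 10.28 in MS5-NC and 6.96, 8.47 and 7.33 in sox10-NC, and rose 7.01-fold. DUSP6, an ERK phosphatase, had 8.60, 9.67 and 9.16 in MS5-NC and 5.16, 6.59 and 5.01 in sox10-NC, a rise of 11.8-fold. Its levels on sox10-NC arrays 1 and 3 lay under the detection floor. The sox10-NC array 2 was the highest of its group for SPRY2 and DUSP6, and the groups did not overlap. The PEA3 factors ETV5 and ETV4 rose 11.0-fold and at least 4.74-fold, and SPRED2, an inhibitor of RAS signalling, 3.67-fold.

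Notch signalling passes from Delta and Jagged ligands to receptors and through RBPJ to HES and HEY repressors. Of 21 measured Notch genes, 6 rose and 2 fell, and the HES and HEY genes split between the groups. HES5, the repressor of neural progenitors, had 12.59, 11.58 and 12.04 in MS5-NC and 4.53, 6.40 and 6.34 in sox10-NC, and rose 79.7-fold (log2 difference 6.32 ± 0.39), or by 5.70 on the log2 scale without sox10-NC array 1. Its level on that array lay under the detection floor. HES4, a related repressor, had 12.17, 11.89 and 11.70 in MS5-NC and 8.11, 7.44 and 8.41 in sox10-NC, a rise of 15.3-fold. HEYL, a repressor of vessels, crest and neurons, had 5.38, 5.27 and 5.73 in MS5-NC and 9.84, 10.28 and 9.93 in sox10-NC, and fell 23.5-fold (log2 difference -4.56 ± 0.29, adjusted p = 1.13e-09). HEY2, its relative, fell 4.97-fold. No array of one group overlapped the other group for these 4 genes. DLK1, a membrane protein related to the Delta ligands and imprinted in mammals, had the largest bound of all genes, with means of 12.48 ± 0.57 in MS5-NC and 4.77 ± 0.27 in sox10-NC (SD, n = 3 each), at least 136-fold higher. DNER, a neuronal transmembrane protein with EGF repeats, was at least 23.6-fold higher, and the ligand DLL1 rose 2.61-fold. DLL3, a ligand that acts within the cell, rose 2.02-fold, a call that ended without background correction, with an offset of 50, without the detection filter, on the 6 arrays alone, and without MS5-NC array 1, MS5-NC array 2 or sox10-NC array 1.

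The letters GTGGGAA, a form of the RBPJ motif, were searched on both strands of the 250 bases upstream of the 4 called HES and HEY genes. All 4 hold them, the 2 that rose and the 2 that fell, as do 5.43% of 35116 promoters. The sequences of HES5 and HEYL, whose levels moved farthest and in opposite directions, are shown with the matches in capitals, from RefSeq for GRCh38.p14. HES5 lies at chr1:2530264-2530513 and HEYL at chr1:39639644-39639893, both on the minus strand, with 2 matches and 1 match.
HES5: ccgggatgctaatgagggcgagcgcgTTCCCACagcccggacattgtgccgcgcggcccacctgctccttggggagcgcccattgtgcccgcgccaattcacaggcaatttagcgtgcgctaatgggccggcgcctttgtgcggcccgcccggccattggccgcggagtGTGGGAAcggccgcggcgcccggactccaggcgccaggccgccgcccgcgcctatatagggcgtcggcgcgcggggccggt
HEYL: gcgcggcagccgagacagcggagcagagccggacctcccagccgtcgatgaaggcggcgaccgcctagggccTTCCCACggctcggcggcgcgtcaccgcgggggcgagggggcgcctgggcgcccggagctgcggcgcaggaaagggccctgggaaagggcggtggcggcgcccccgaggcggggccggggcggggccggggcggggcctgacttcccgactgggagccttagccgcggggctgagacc

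The retinoic acid pathway moved both ways, with 4 of 14 measured members higher and 4 lower. MEIS1, a TALE homeobox factor, was at least 5.49-fold higher, and CYP26A1, which degrades retinoic acid, at least 3.26-fold. NR2F1, an orphan nuclear receptor of crest and cortex, had 7.43, 8.30 and 7.93 in MS5-NC and 10.95, 10.35 and 10.74 in sox10-NC, and fell 6.93-fold. CRABP2, a carrier of retinoic acid, fell 3.74-fold. Of 13 BMP targets, 2 rose and 2 fell, and 1 rose without MS5-NC array 1 or sox10-NC array 3. The fallen ones were MSX1, a homeobox factor of dorsal and facial tissue, 4.65-fold lower, and ID3, an inhibitor of bHLH factors, 2.55-fold lower.

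**Figure D4:**
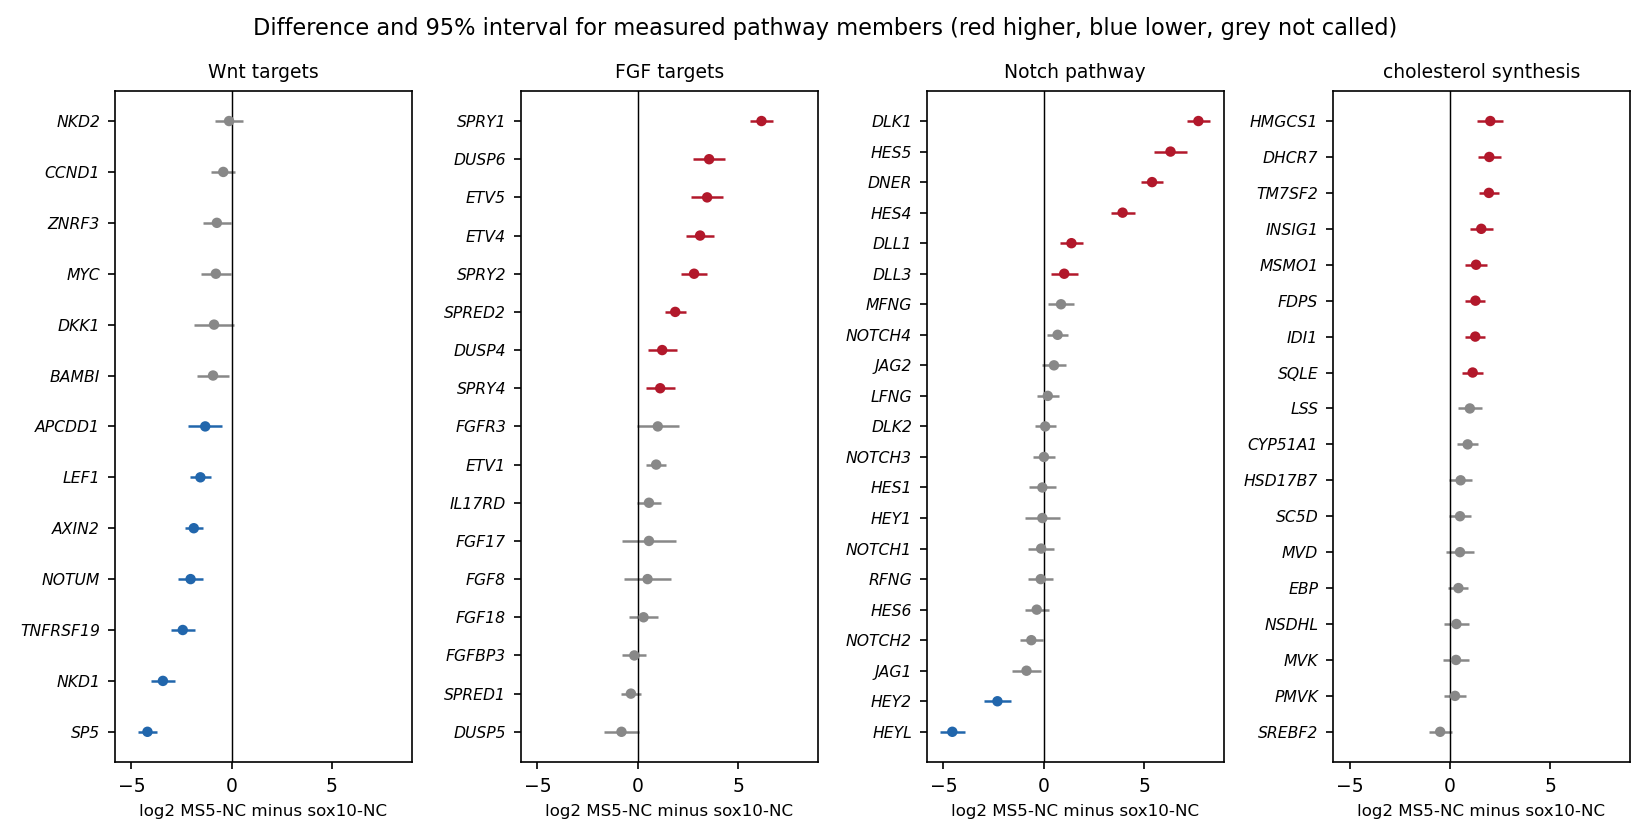
Log2 difference, MS5-NC minus sox10-NC, with its 95% interval for each measured gene of the Wnt, FGF, Notch and cholesterol lists. Red points were called higher, blue ones lower and grey ones were not called. All called Wnt targets lie left of 0, all called FGF and cholesterol genes right of 0, and the Notch list has called genes on both sides.

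Adhesion and matrix genes changed member by member. Of 9 measured classical cadherins, 5 rose and 3 fell, or 2 and 2 without background correction. CDH2, or N-cadherin, was bright in both groups, with 12.19, 12.36 and 12.18 in MS5-NC and 10.55, 11.40 and 11.46 in sox10-NC, a rise of 2.15-fold that was no longer called without sox10-NC array 1. CDH10, a cadherin of brain, rose 17.3-fold. CDH15, or M-cadherin, was at least 4.96-fold lower (log2 difference -3.11, or -3.78 without sox10-NC array 1), and CDH6 was described above. Of 24 measured collagen genes, 4 rose and 5 fell, or 3 fell without MS5-NC array 3 and 2 without background correction. COL4A6, a basement membrane collagen, had 10.87, 11.15 and 11.05 in MS5-NC and 7.92, 7.50 and 8.44 in sox10-NC, a rise of 8.38-fold, and COL3A1, a fibrillar collagen, rose 7.99-fold. COL11A2, a cartilage collagen, was at least 8.68-fold lower, and COL23A1, a membrane collagen, fell 6.75-fold. Of 18 integrins and laminins 4 rose, or 2 without MS5-NC array 2 and 0 without background correction. In the same list 2 fell, with LAMB1, a laminin chain, 5.57-fold lower.

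Among mesenchyme and matrix genes 5 of 22 rose and 5 fell, around a median of -0.06, and 3 fell without MS5-NC array 2, sox10-NC array 1 or sox10-NC array 3. SPARC, a collagen-binding protein, rose 3.91-fold. DCN and LUM, small proteoglycans of stroma, rose 7.13-fold and 6.74-fold, and DCN varied on the sox10-NC arrays, at 4.44, 5.01 and 5.80 against 7.74, 7.49 and 8.53 in MS5-NC. The DCN call ended without background correction, without the detection filter, with an intensity trend and without MS5-NC array 3, and the LUM call with an intensity trend. TIMP3, an inhibitor of matrix proteases, was at least 3.65-fold lower. As MS5-NC was grown on stromal cells, 7 stromal markers were summed, and reached 2614 to 3231 intensity units in MS5-NC and 2063 to 4449 in sox10-NC, ranges that overlap. DCN and LUM were the 2 of 7 called higher, and the 2 chains of collagen I were not called. On another list of stromal genes, 4 of 11 measured members rose and 1 fell, 36.4% and 9.1%, against 10.8% and 6.57% of all genes, and without MS5-NC array 3 only 2 were called higher. The 4 were COL3A1, DCN, LUM and COL6A3, a chain of microfibrillar collagen that rose 4.98-fold, and the fallen one was S100A4, a calcium-binding protein, 3.10-fold lower. The COL6A3 call ended without the detection filter, with an intensity trend and without MS5-NC array 3, when its log2 difference was 1.63. COL1A2 had 10.93, 10.57 and 10.57 in MS5-NC and 11.13, 10.44 and 11.77 in sox10-NC. The part of the feeder in these levels was not tested. Of 7 regulators of epithelial to mesenchymal transition, CDH2 rose and SNAI2 and ZEB2 fell, and 2 were called higher without MS5-NC array 1 or MS5-NC array 2. ZEB2, a zinc finger repressor of crest and cortex, fell 4.64-fold.

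Axon guidance genes were called higher for 11 and lower for 5 of 32 measured members. SLIT2, a repellent ligand, had 9.10, 8.98 and 8.90 in MS5-NC and 5.72, 5.01 and 5.63 in sox10-NC, a rise of 11.7-fold. Receptors that rose were EPHA3 at least 3.45-fold, the netrin receptors UNC5A at least 2.73-fold and DCC at least 1.98-fold, and ROBO3, a relative of the Slit receptors, 4.13-fold. The falling members were NRP2 above, the semaphorin SEMA3C, 3.89-fold lower, EPHB4, a receptor for ephrin-B2, 2.50-fold lower, the netrin ligand NTN1, 2.49-fold lower, and ROBO1, a Slit receptor, 2.11-fold lower. The calls of DCC, EPHB4, NTN1 and ROBO1 ended without background correction, those of NTN1 and ROBO1 also with an offset of 50, and that of ROBO1 without MS5-NC array 2.

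Genes of pluripotent cells were measured because the cells derive from a stem cell line. POU5F1 and NANOG, core pluripotency factors, were detected on no array. Of 9 measured members of the list, 3 fell and 0 rose, with 1 called higher without MS5-NC array 2 or sox10-NC array 3, and these 3 also separated the MS5-NC arrays. LIN28A, an RNA-binding protein that blocks let-7, had 9.46, 6.26 and 5.91 in MS5-NC and 11.68, 11.41 and 11.60 in sox10-NC, and fell 20.4-fold (log2 difference -4.35 ± 0.58). ZFP42 had 6.63, 5.02 and 4.49 in MS5-NC and 7.95, 8.43 and 8.78 in sox10-NC, and fell 8.03-fold. L1TD1, an RNA-binding protein, had 7.80, 5.80 and 5.37 in MS5-NC and 9.15, 8.24 and 8.91 in sox10-NC, and fell 5.44-fold. MS5-NC array 1 was the highest of its group for all 3 genes. Without it the log2 differences were -5.51 for LIN28A, -3.63 for ZFP42 and -3.19 for L1TD1, and without MS5-NC array 3 the LIN28A difference was -3.72.

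ACTC1, the cardiac actin gene, had the largest fall among genes detected on all 6 arrays. It had 7.47, 6.64 and 6.81 in MS5-NC and 10.73, 12.14 and 12.27 in sox10-NC, and fell 26.7-fold (adjusted p = 3.04e-08). Other large falls were those of KANK4, a protein of the KANK adhesion family, 19.1-fold, ECEL1, a membrane protease of neurons, 18.9-fold, NTN5, a netrin of boundary cap cells, 18.0-fold, and SCRG1, a protein of cartilage and neural cells, 15.8-fold. SUSD2, PKDCC and MGST1 fell 12.1-fold, 11.1-fold and 11.3-fold. SUSD2 is a membrane protein, PKDCC a secreted kinase of skeletal development, and MGST1 a glutathione transferase of membranes. MGST1 had 7.66, 5.98 and 5.70 in MS5-NC and 9.67, 10.08 and 10.08 in sox10-NC, and its log2 difference was -4.12 without MS5-NC array 1. Of genes detected on every sox10-NC array and no MS5-NC array, RASL12, a small GTPase, was at least 14.4-fold lower, ABCC2, an export pump, 14.1-fold, and CCDC3, a secreted protein, 12.1-fold. MUSTN1, a protein of muscle and skeleton, and FOXD2, a forkhead factor of mesenchyme, were at least 10.9-fold and 10.8-fold lower. The groups stood apart on every array for these genes, as the rule for naming them required.

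Other large rises were chosen by size alone. RTN1, a reticulon of the neuronal endoplasmic reticulum, had 10.72, 10.99 and 11.50 in MS5-NC and 5.80, 7.19 and 6.25 in sox10-NC, and rose 25.2-fold. NACAD, a relative of a ribosome-associated chaperone, rose 20.1-fold, and TCEAL2 and BEX2, related X-linked genes of brain, 17.4-fold and 12.8-fold. The other detected probes of NACAD gave log2 differences of 1.28 and 2.66. DDR1, a collagen receptor kinase, had 9.98, 10.44 and 10.08 in MS5-NC and 6.31, 6.41 and 5.62 in sox10-NC, a rise of 16.6-fold. Its other detected probe gave a log2 difference of 1.28. MIAT, a long noncoding RNA of neurons, rose 13.4-fold, GPM6A, a membrane protein of axons, 12.8-fold, and MAP1LC3A, an autophagosome protein, 12.5-fold.

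Cholesterol synthesis genes rose for 8 of 18 measured members, with 0 lower and a median log2 difference of 0.94. HMGCS1, an early enzyme of the pathway, had 12.74, 12.60 and 12.54 in MS5-NC and 9.95, 11.57 and 10.30 in sox10-NC, a rise of 4.05-fold. DHCR7, an enzyme of the final steps, rose 3.91-fold, TM7SF2, a sterol reductase, 3.86-fold, and INSIG1, the sterol-regulated inhibitor of the pathway, 2.97-fold. MSMO1 and FDPS, enzymes of the sterol and isoprenoid steps, rose 2.48-fold and 2.43-fold. On every array of MS5-NC these 6 genes were above every array of sox10-NC, and 96.98% of all called genes were likewise without overlap.

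Cell cycle genes changed in parts. None of 29 measured mitosis genes was called in either direction (limma), and the median log2 difference of the 29 was 0.08. Of them, 5 had an unadjusted p under 0.05, a smaller share than the 4468 of all 11280 genes tested. TOP2A, a topoisomerase of dividing cells, had 11.88, 11.60 and 12.03 in MS5-NC and 10.91, 10.95 and 11.14 in sox10-NC, with an adjusted p of 0.0243 and a difference below 2-fold. Of 32 S phase genes, 5 fell and 0 rose, but 9 were lower without sox10-NC array 1 and 3 without sox10-NC array 3. Among the 5 were RFC3, a clamp loader subunit, 3.21-fold lower and CDT1, a licensing factor, 2.62-fold lower. The inhibitors of cyclin-dependent kinases CDKN1C, CDKN2D and CDKN1A rose. CDKN1C, or p57, had 10.30, 9.62 and 9.40 in MS5-NC and 7.18, 8.61 and 7.25 in sox10-NC, and rose 4.28-fold. CDKN2D, or p19, rose 5.13-fold and CDKN1A, or p21, 3.85-fold, while CDK4, a kinase of early cell cycle, fell 2.42-fold.

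Genes that report handling and culture stress were examined beside these lists. Immediate early genes rose for 3 and fell for 1 of 13 measured members, integrated stress response genes for 2 and 1 of 14, and hypoxia and glycolysis genes for 6 and 0 of 29. These counts turned on single arrays. The hypoxia and glycolysis list had 2 higher without MS5-NC array 2, 3 higher and 1 lower without sox10-NC array 3, and 2 lower without sox10-NC array 2. The immediate early list had 1 higher without sox10-NC array 1, and 0 to 2 lower over the arrays left out. The integrated stress response list had 1 higher without MS5-NC array 3. JUND, a subunit of AP-1, rose 2.37-fold, a call that ended without sox10-NC array 1, and TRIB3, a stress-induced pseudokinase, rose 3.46-fold, a call that ended without background correction. BNIP3L, a mitochondrial protein induced by hypoxia, rose 3.35-fold, or by 1.06 on the log2 scale without sox10-NC array 2. ENO2, a neuronal enolase, rose 2.91-fold. Of 7 metallothioneins, MT1X fell 5.87-fold, or by 3.16 on the log2 scale without sox10-NC array 3. In that setting 3 metallothioneins were called lower, and 2 without MS5-NC array 2, while 1 was called higher without MS5-NC array 2, MS5-NC array 3 or sox10-NC array 1. The shares of the integrated stress response list, 14.3% higher and 7.1% lower, lay near those of all genes.

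Calls within the lists are set side by side in the plot of percentages. The pan-neuronal list had 87.0% of its members called higher, the GABAergic list 80.0% and the forebrain list 75%, against 10.8% of all genes. The specifier list had 68.4% called lower, the sensory list 66.7%, the crest surface list 62.5% and the Wnt list 53.8%, against 6.57% of all genes. With genes below background set at their bounds, the median log2 difference was -1.59 for the specifiers, -1.82 for the crest surface genes and 1.59 for the forebrain list, and it was 1.97 for the pan-neuronal and -1.32 for the Wnt list, the last pair as before. Some other medians shrank more in proportion. The FGF list went from 1.0 to 0.48 and the cortical glutamatergic list from 1.13 to 0.62. The channel list went from 1.05 to 0.53 and the dorsal midline list from 1.03 to 0.39. No test of a list against other genes was made, since the lists were chosen with these data known.

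**Figure D5:**
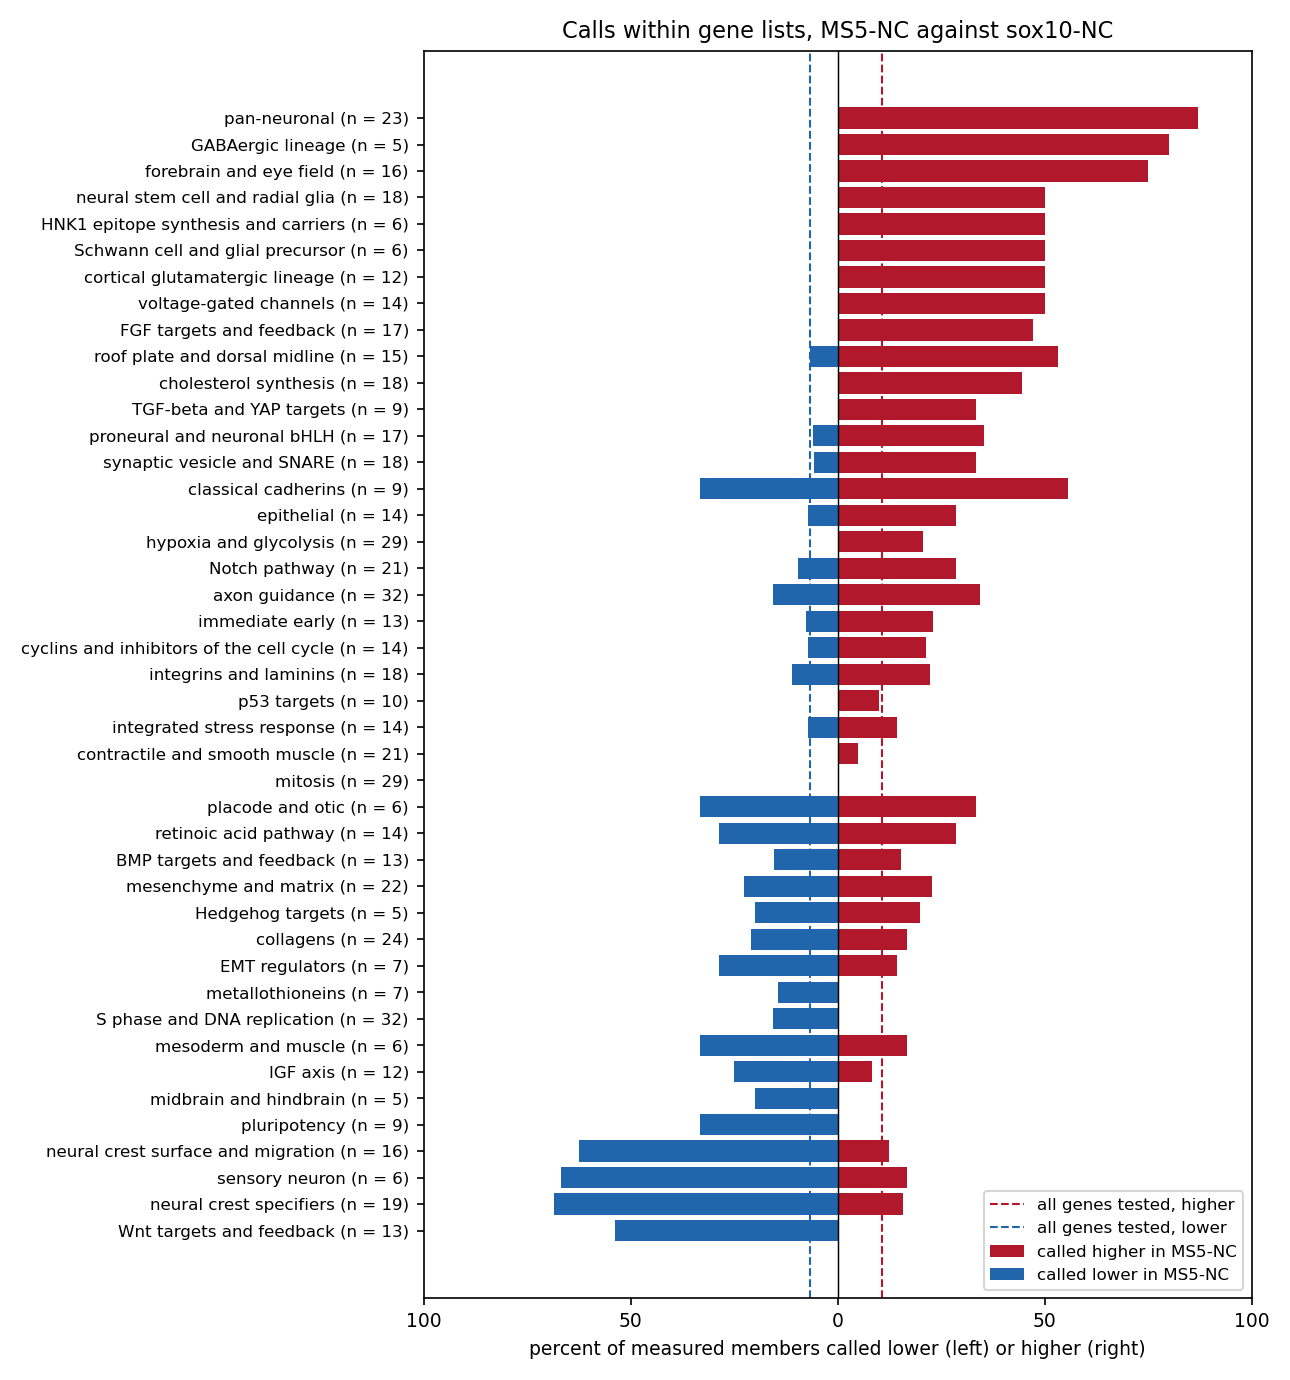
Percent of measured members called lower (blue, left) or higher (red, right) in MS5-NC for each list with at least 5 measured members, given as n. Dashed lines mark the shares over all 11280 genes, 10.8% higher and 6.57% lower. Neuronal and forebrain lists extend farthest right, and Wnt, neural crest and sensory lists farthest left.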

How the data were processed

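Total RNA extracted with Trizol was hybridised to Illumina HT-12 arrays, per the labels' protocols, and the submitters' processing notes name GenomeStudio. The table deposited by the authors holds mean bead intensity per probe on the linear scale, without background subtraction or normalization between arrays, and, per the file headers, a detection p-value. The authors' deposited series matrix holds processed intensity whose steps are not given in the sources used here. Its columns have medians of 7.54 to 7.58 and rank the probes of each array as the raw table does, so it served as an alternative. Counts of beads per probe were deposited by the authors per the file headers and only described, with medians of 18 to 22 an array, and 12 columns of bead standard errors were left unused.

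Signals were background-corrected and quantile-normalised to the log2 scale with neqc in limma 3.58.1 (R 4.3.3, offset 16), while the authors' values were deposited without log2 transformation. Of 47322 probes, 30113 had 1 gene in the array annotation, 8 several and 17201 none, and symbols were updated through Entrez ID to RefSeq of GRCh38.p14. Probes with a detection p under 0.01 on at least 3 of 12 arrays were kept, and each of 11280 genes took its brightest probe. For 34 of 462 called genes with several probes another probe pointed the other way, by at least 2-fold for 1. Other probes could also give a smaller difference the same way, as for ERBB3, CDH6, NRP2, WNT7B, NACAD and DDR1, so a fold is that of 1 probe. A 4-group model was fitted to all 12 arrays with lmFit and eBayes, two-sided, so NPC-NC and LSB add to the estimate of spread. Without that borrowing, 3 arrays a group limit the precision. The model and its calls were tested on simulated data in which only bright genes changed and every gene counted as detected. That test did not cover background correction or the detection rules. Files named no slide or scan date, so no batch was fitted.

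Same-numbered MS5-NC and sox10-NC arrays did not deviate together (correlations 0.013, -0.059 and 0.048), so numbers were not taken as pairs. The comparison, the gene lists and the naming rule were chosen with earlier results of these data known. Genes were named from a marker panel, the 12 largest rises and falls among genes detected on all 6 arrays without overlap, up to 8 genes in each direction detected on all 3 arrays of one group and none of the other, at most 6 members called each way from every list, and list members that were not called. The alternatives were cyclic loess, no background correction, an offset of 50, the series matrix, no or a stricter detection filter, the mean over probes, the 6 arrays alone, an intensity trend, a replicate block and leaving out each array.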

Additional observations from a re-analysis of the deposited data

How the results depend on the processing

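The counts of calls depended most on background. Without background correction 834 genes were called, 552 higher and 282 lower, against 1955, 1214 and 741, and 833 of them were among the original calls. With an offset of 50 there were 1200, 787 higher and 413 lower, with 1197 shared. Folds of the called genes named here came to a median of 0.473 times and 0.646 times their values under these settings. The other alternatives gave 1776 to 2068 calls, and leaving out each array in turn gave 1905 to 2103, with 1190 to 1266 higher and 715 to 837 lower. Calls within the lists numbered 165 to 256, against 244. With the replicate number as a block, 1956 genes were called, and of the called genes named here SNCG alone was no longer among them. Of 178 called genes named here, 155 kept their call under every alternative that measured them. No called gene named here changed direction under any of the 16 alternatives, and 750 of all genes were called under every one, 499 higher and 251 lower. Levels near the detection floor set what can be seen, so genes listed as below background have only bounds.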

Other observations

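Several further genes, chosen after their values were seen, differed between the groups in ways that no list covered. KRTAP21-1, KRTAP21-2 and KRTAP6-3, neighbouring genes of hair keratin-associated proteins on chromosome 21, were all below background in MS5-NC. KRTAP21-2 had log2 levels of 4.83, 4.34 and 4.60 in MS5-NC and 8.16, 8.89 and 8.29 in sox10-NC, and the 3 genes were at least 9.67-fold, 7.43-fold and 9.65-fold lower for KRTAP21-2, KRTAP21-1 and KRTAP6-3. INSC, an adaptor of spindle orientation, had 4.74, 4.59 and 5.21 in MS5-NC and 9.95, 9.61 and 9.84 in sox10-NC, and fell 31.0-fold. SPP1, the matrix protein osteopontin, fell 27.2-fold, and NNAT, an imprinted proteolipid of the nervous system, was at least 3.96-fold lower. METTL1 and WDR4, the 2 subunits of one tRNA methyltransferase, fell 5.05-fold and 4.64-fold. TRH, the hypothalamic thyrotropin-releasing hormone, had 8.66, 8.73 and 9.74 in MS5-NC and 4.28, 4.35 and 4.35 in sox10-NC, and was at least 12.5-fold higher.

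CHCHD2, a mitochondrial protein, had 5.24, 11.36 and 11.05 in MS5-NC and 4.40, 4.69 and 4.42 in sox10-NC. In NPC-NC it had 11.34, 5.04 and 5.22. Its log2 difference between MS5-NC and sox10-NC was 4.71 ± 1.37, 6.71 without MS5-NC array 1, 3.65 without MS5-NC array 2 and 3.82 without MS5-NC array 3, and the call ended under the last 2, without the detection filter and with an intensity trend. Thus 1 MS5-NC array and 2 NPC-NC arrays stood low for a gene that was high on the other arrays of MS5-NC and NPC-NC. MS5-NC array 1 also stood apart for LIN28A. The cause was not tested.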
